A study of Mus musculus with 8 samples.

Results

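Lhx6, Lhx8, Nkx2-1 and Moxd1 are 4 genes that mark neurons and progenitors of the preoptic area and the adjoining ventral forebrain, and their RNA levels were followed in embryonic mouse hypothalamus with and without the transcription factor gene Foxd1. They are 4 of the 22725 gene symbols listed at all stages, taken by exact symbol, with the rows of one symbol summed. They were picked because their values in mutant and wild-type libraries were already known to differ at one or more stages, so their differences are described here without a test. The comparison comes from a study of how Foxd1 loss affects neuronal subtypes of the anterior hypothalamus.

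The 8 libraries were 1 wild-type and 1 Foxd1-mutant at E12.0, 1 of each at E12.5, and 2 of each at E17.5 (embryonic days). Each library was made from pooled RNA of dissected hypothalamic tissue, from 8 Foxd1-null and 10 control embryos in all. One label calls the controls wild-type and another describes them in words that cover both genotypes, so whether heterozygotes were among them is not known. Nothing says that the pools came from separate litters, so spread between E17.5 libraries may be technical. The account of tissue collection names E12.5 and E17.5 only, so how E12.0 was set apart from E12.5 is not given.

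Foxd1 itself measured 24.95 FPKM (fragments per kilobase of transcript, scaled to library size) in the wild-type pool of E12.0 and 2.77 in the mutant one. At E12.5 the pools gave 30.3 and 2.497, and at E17.5 the wild-type ones gave 3.90 and 1.96 against 0.396 and 0.230, so all 8 libraries lay on the side of their label. Depth, estimated from the steps between low FPKM values, was 30.3 to 43.5 M fragments at E17.5. At E12 it was less certain, with 4.03 M in the wild-type E12.0 library, 56.2 M in wild-type E12.5 and 16.9 M and 12.4 M in the mutants. Regulators of the labelled tissue were present in all libraries, with Otp between 3.52 and 71.2 FPKM and Sim1 between 8.23 and 22.95. Eomes and Neurod6, genes of the cortex, were present too, with 1.75 to 8.39 and 0.736 to 33.7 FPKM. Since these are bulk samples, fewer cells of a type and less RNA per cell cannot be told apart for any gene below.

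Nkx2-1 encodes a homeodomain factor that sets up the ventral hypothalamus, the preoptic area and the medial ganglionic eminence, the ventral telencephalic swelling from which many cortical and striatal interneurons migrate. In the telencephalon it acts upstream of the LIM homeodomain factors Lhx6 and Lhx8: Lhx6 directs the fate and migration of GABAergic interneurons, and Lhx8 is needed for forebrain cholinergic neurons. Nkx2-1 is also used by hypothalamic cells that do not use Lhx6 or Lhx8. Moxd1 encodes a copper-dependent monooxygenase of the family of dopamine beta-hydroxylase and is used as a marker of the sexually dimorphic nucleus of the preoptic area.

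Promoter sequences are shown for the 3 genes with higher levels in both E17.5 mutant libraries, because members that move together invite a look at the sequence at their start sites. For Lhx6 both of its start regions are shown, since the transcripts from them differed between the mutant libraries. Each window runs from 250 bases before to 50 bases after a start in RefSeq (build GRCm38.p6, not the mm9 build of the deposited values), 5′ to 3′ on the gene's strand. All 4 genes matched an entry in that table. Capitals mark matches on either strand to any of 3 motifs: TNAAGTG for NKX2-1, TAATTA for LIM homeodomain factors and TGTTTAC for forkhead factors such as Foxd1.
Lhx6 upstream start, chr2:36105359-36105658, minus strand: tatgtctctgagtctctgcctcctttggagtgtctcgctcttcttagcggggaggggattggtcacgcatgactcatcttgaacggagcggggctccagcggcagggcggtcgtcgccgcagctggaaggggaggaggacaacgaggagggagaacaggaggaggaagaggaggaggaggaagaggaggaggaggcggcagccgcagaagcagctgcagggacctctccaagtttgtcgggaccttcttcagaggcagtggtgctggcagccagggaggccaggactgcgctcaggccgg
Lhx6 downstream start, chr2:36104011-36104310, minus strand: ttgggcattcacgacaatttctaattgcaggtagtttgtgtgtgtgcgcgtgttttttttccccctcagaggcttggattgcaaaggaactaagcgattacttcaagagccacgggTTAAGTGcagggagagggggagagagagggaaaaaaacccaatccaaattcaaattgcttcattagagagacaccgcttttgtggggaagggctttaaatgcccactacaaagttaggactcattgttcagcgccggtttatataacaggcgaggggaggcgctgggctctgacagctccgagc
Lhx8, chr3:154330511-154330810, minus strand: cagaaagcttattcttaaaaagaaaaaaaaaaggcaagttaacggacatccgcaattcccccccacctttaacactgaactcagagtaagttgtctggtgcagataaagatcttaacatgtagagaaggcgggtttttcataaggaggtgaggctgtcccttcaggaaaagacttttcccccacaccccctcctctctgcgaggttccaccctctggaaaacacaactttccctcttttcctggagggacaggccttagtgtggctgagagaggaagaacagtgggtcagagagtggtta
Moxd1, chr10:24223267-24223566, plus strand: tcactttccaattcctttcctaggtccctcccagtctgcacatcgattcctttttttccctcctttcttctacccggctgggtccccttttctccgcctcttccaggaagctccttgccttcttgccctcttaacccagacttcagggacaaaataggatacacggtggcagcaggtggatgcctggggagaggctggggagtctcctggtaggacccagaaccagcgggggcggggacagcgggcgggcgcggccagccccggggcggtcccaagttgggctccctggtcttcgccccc
The downstream Lhx6 window holds 1 match, TTAAGTG, which begins 134 bases before the start. The other 3 windows printed, and the windows of Nkx2-1 and of another Lhx6 start, hold no match to any of the 3 motifs. Of 32851 windows of the same length over all genes, 11.5% hold the NKX2-1 motif, 5.29% the LIM homeodomain motif and 3.65% the forkhead motif, and a match is a description of letters only. The Lhx8 transcript of the E17.5 values begins 99 bases from the start that sets its window. The more abundant Nkx2-1 transcript, with 60.6% to 67.6% of the gene's level in the E17.5 libraries, begins 1802 bases from the start that sets the Nkx2-1 window. The sequence at its own start was not searched. GC content was 63.3% in the upstream and 48.7% in the downstream Lhx6 window, 47.0% in Lhx8 and 61.7% in Moxd1, around a median of 52.7% over all windows.

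**Figure D1:**
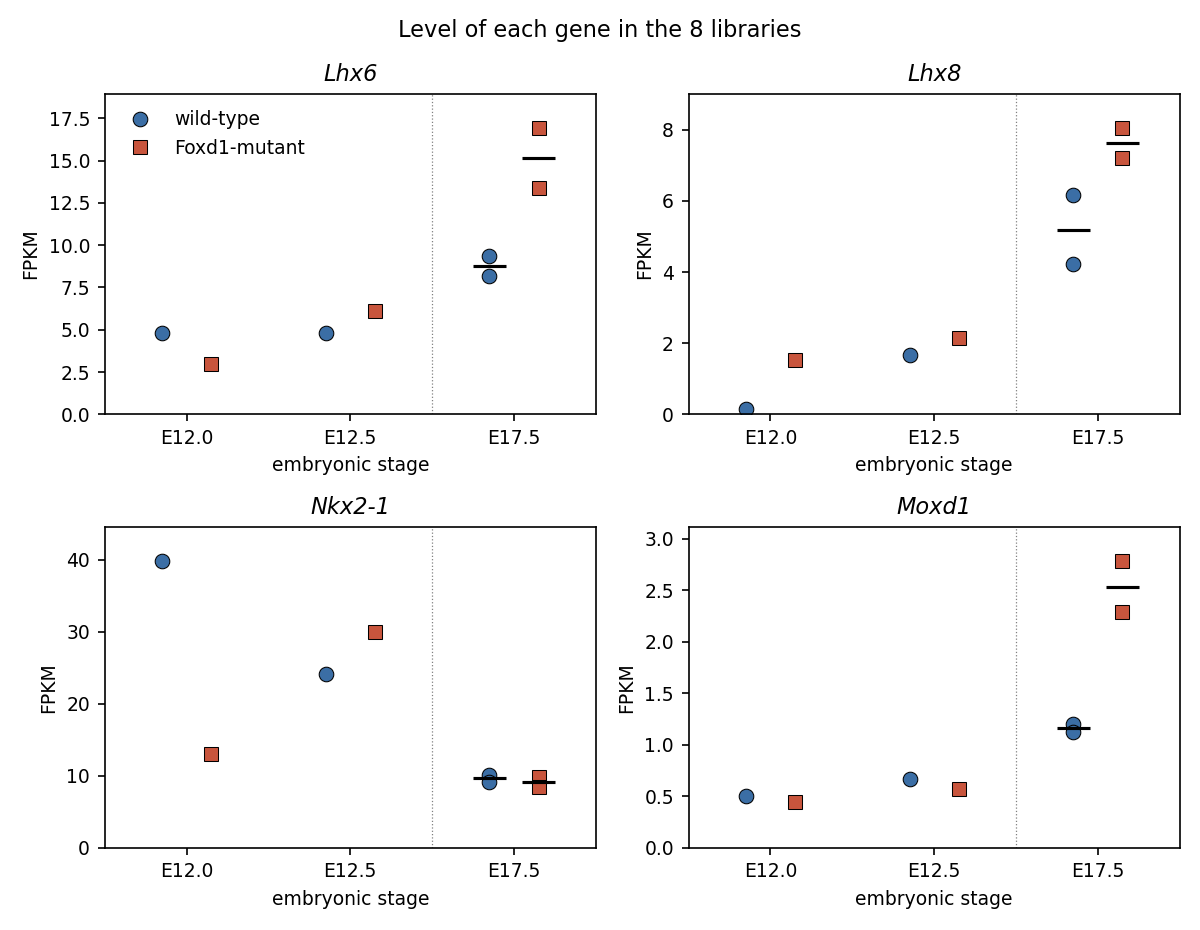
FPKM (vertical axes, each from 0) of the 4 genes in every library, by stage; circles are wild-type and squares Foxd1-mutant libraries, bars are means of 2 libraries, and the dotted line parts the E12 and E17.5 tables, which were made separately. At E17.5 both mutant squares lie above both wild-type circles for Lhx6, Lhx8 and Moxd1, and overlap with them for Nkx2-1.

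At E17.5 each mutant library exceeded each wild-type one for Lhx6, Lhx8 and Moxd1, while Nkx2-1 was at like levels in the 2 genotypes. All 4 genes passed the filter of a mean of 1 FPKM. Both mutant libraries lay above both wild-type libraries in 3 of the 4, and in 20.9% of the 13235 genes tested, while both lay below in none of the 4 and in 22.2% of all. Without mutant replicate 2 the count was again 3 of 4, with 33.5% of all genes above and 34.4% below. The 4 were chosen on this contrast, so nothing is read from that count.

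For Lhx6 the wild-type libraries gave 8.17 and 9.38 FPKM and the mutants 13.4 and 16.9. The mutants were the 2 highest, with no overlap, and the means of 8.78 ± 0.854 and 15.2 ± 2.51 FPKM (SD, n = 2 per genotype) stood 1.73-fold apart. On the log2(FPKM + 1) scale the difference was 0.72 with a standard error of 0.12, and 25 of the 13235 genes had a higher one.

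The E17.5 values list 4 RefSeq transcripts of Lhx6, which start in 2 regions up to 1348 bases apart (GENCODE, GRCm38). NM_001083126 and NM_001083127 begin at the downstream start printed above, NM_001083125 at the upstream start, and NM_008500 137 bases after the latter. Summed over the downstream start, Lhx6 reached 5.91 and 6.66 FPKM in the wild-type pools, 8.97 and 14.4 in the mutant ones. Over the upstream start it reached 2.26 and 2.73, then 4.42 and 2.54, in the same order. Both mutant libraries were thus above wild-type for the downstream start, whereas for the upstream start mutant replicate 2 lay between the wild-type values and only mutant replicate 1 was above them. The downstream start carried 72.4% and 70.9% of Lhx6 in wild-type, 67.0% in mutant replicate 1 and 85.0% in mutant replicate 2. NM_001083127 was the most abundant transcript in all 4 libraries, between 47.0% and 60.2% of the total. Transcript values are estimates that divide reads of shared exons, so their error exceeds that of the sum.

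**Figure D2:**
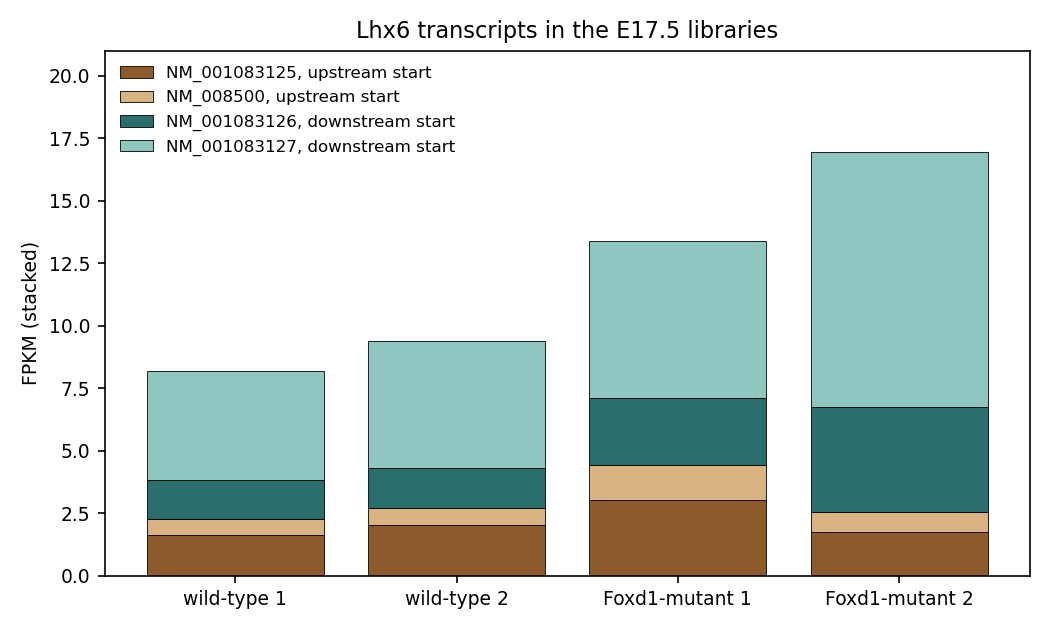
Stacked bars give the FPKM of each Lhx6 transcript (vertical axis, from 0) in the 4 E17.5 libraries; brown shades are transcripts of the upstream and green shades of the downstream start. The green part is tallest in mutant replicate 2 (14.4 FPKM), whose brown part (2.54 FPKM) is within the wild-type range.

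Lhx8, the relative of Lhx6 used by cholinergic neurons, gave 4.22 and 6.16 FPKM in the wild-type pools, 8.05 and 7.20 in the mutant ones. The lower mutant and the higher wild-type library were close, though the groups did not overlap. Means were 5.19 ± 1.37 and 7.63 ± 0.601 FPKM (SD, n = 2), a 1.47-fold difference, with a log2 difference of 0.50 and a standard error of 0.16. That difference rests in part on wild-type replicate 1, without which it was 0.27.

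Moxd1 was lower in level, at 1.21 and 1.13 FPKM in the wild-type pools, 2.78 and 2.28 in the mutant ones. By fold its groups stood farthest apart of the 4, at 1.17 ± 0.0560 against 2.53 ± 0.350 FPKM (SD, n = 2), or 2.17-fold. The log2 difference was 0.70 with a standard error of 0.11. At the depth of these libraries that is about 122 and 143 fragments in wild-type and 331 and 202 in mutant.

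Nkx2-1, which acts upstream of the other regulators in the ventral telencephalon, gave 10.1 and 9.19 FPKM in the wild-type pools, 9.88 and 8.48 in the mutant ones. The mutant values fell on either side of the lower wild-type value, and the log2 difference of -0.07 (standard error 0.09) turned to 0.03 without mutant replicate 2. Both of its listed transcripts overlapped between genotypes: NM_001146198 was at 6.49 and 6.22 against 6.62 and 5.13 FPKM, and NM_009385 at 3.66 and 2.98 against 3.26 and 3.34. The ratio of Lhx6 to Nkx2-1 was therefore 0.805 and 1.02 in wild-type and 1.36 and 1.998 in mutant libraries.

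**Figure D3:**
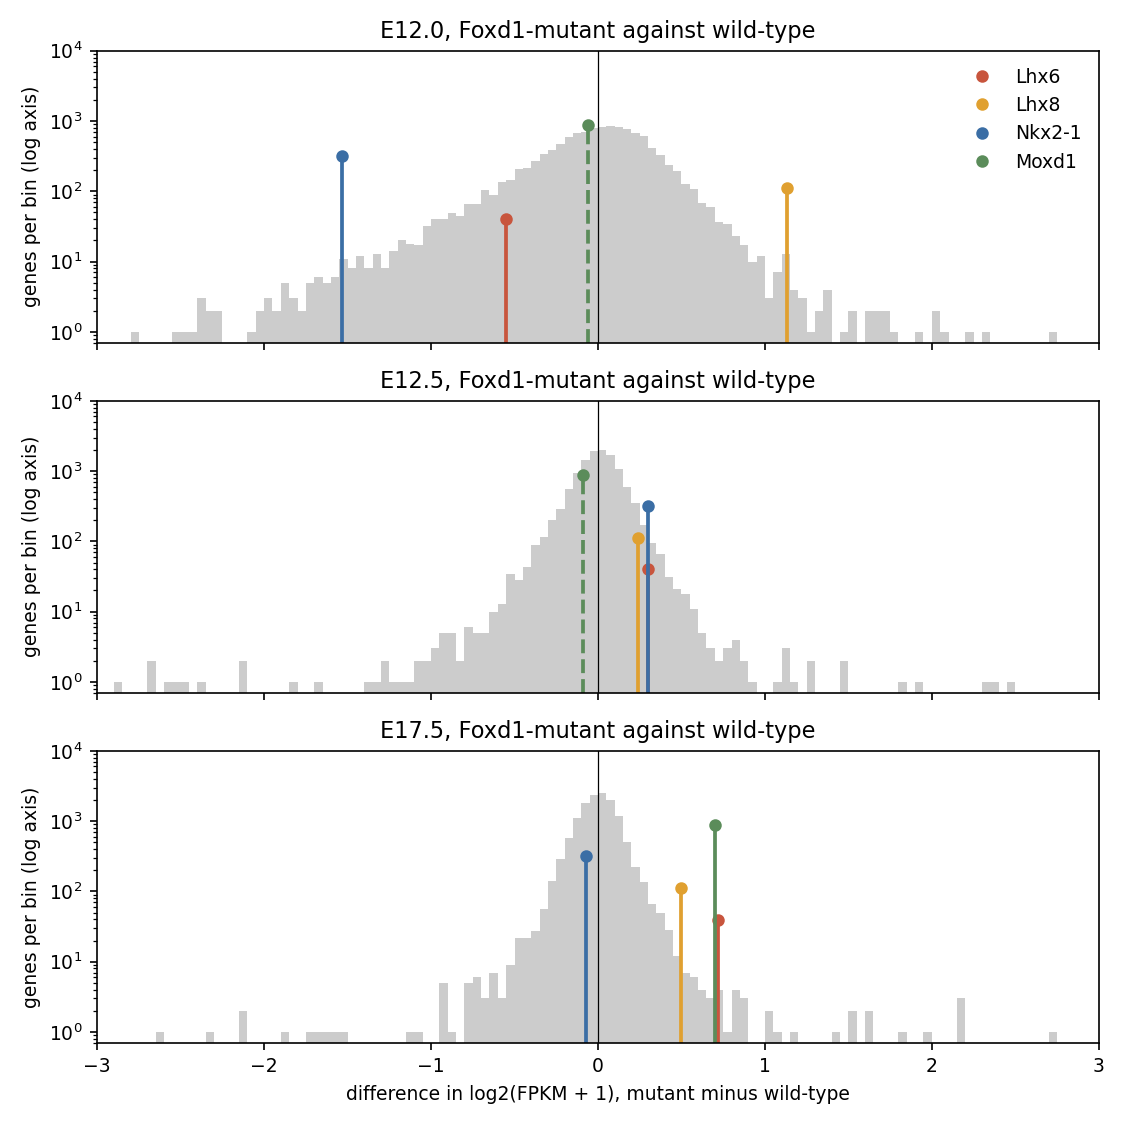
Grey bars count tested genes (log axis) by their difference in log2(FPKM + 1), mutant minus wild-type, at each stage; coloured stems place the 4 genes, and their heights carry no value. Moxd1 is dashed at E12, where it was below the filter. The spread of all genes is widest at E12.0, where Nkx2-1 (-1.54) and Lhx8 (1.13) lie in opposite tails, and at E17.5 Lhx6, Moxd1 and Lhx8 lie in the upper tail.

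Markers of other tissue moved with these differences at E17.5. Eomes, a gene of cortical intermediate progenitors, gave 3.58 and 3.03 FPKM in the wild-type pools, 5.74 and 8.39 in the mutant ones, with no overlap. Tbr1, a factor of early cortical neurons, gave 5.08 and 4.15 FPKM, then 5.91 and 9.83, in the same order and without overlap. The part of telencephalic tissue in the differences of Lhx6, Lhx8 and Moxd1 was not tested.

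Some other cortical genes did not follow the same library pattern as Eomes and Tbr1. All 12 genes of a list of telencephalic and cortical markers were higher on average in the mutant, with a median log2 difference of 0.59, against 51.0% of all genes and a median of 0.00. Limma called none at the adjusted threshold of 0.05, as for all but 0.00756% of the genes tested. At unadjusted p under 0.05 it called 4 higher, against 2.18% of all genes tested. Without mutant replicate 2 just 5 of 11 were higher, and the median was -0.16. The list summed to 56.6 and 56.7 FPKM in the wild-type pools, 58.5 in mutant replicate 1 and 121 in mutant replicate 2. None of the 12 was at 0 in any E17.5 library. Neurod6, a gene of cortical projection neurons, measured 8.48 and 11.1 FPKM in the wild-type pools, 8.59 in mutant replicate 1 and 33.7 in mutant replicate 2, and Emx1, a dorsal telencephalic regulator, at 1.18, 0.528, 0.489 and 4.07 in the same order. In mutant replicate 1, Lhx6, Lhx8 and Moxd1 were 1.53, 1.55 and 2.38 times the wild-type mean. Eomes was at 1.74 times its wild-type mean in that library, and Neurod6 and Emx1 were at 0.875 and 0.574 times theirs.

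**Figure D4:**
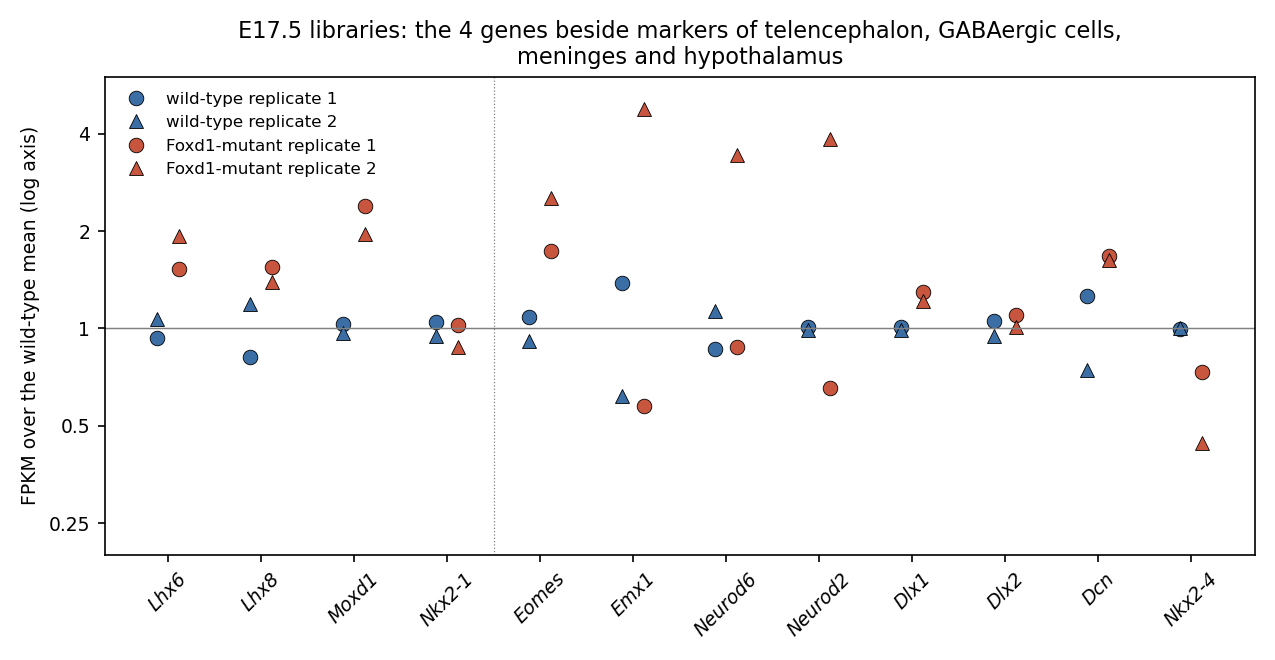
Level in each E17.5 library over the wild-type mean (log axis) for the 4 genes, left of the dotted line, and for markers of telencephalon (Eomes, Emx1, Neurod6, Neurod2), GABAergic cells (Dlx1, Dlx2), meninges (Dcn) and hypothalamus (Nkx2-4). Mutant replicate 1 (red circles) is above wild-type for Lhx6, Lhx8, Moxd1 and Eomes but not for Emx1, Neurod6 and Neurod2.

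Other tissues that use these genes, or that lie next to the hypothalamus, were checked in the same libraries. Meningeal genes were higher in the mutant in 8 of 9 cases (median log2 difference 0.52), with 0 at the adjusted threshold by limma. Of the 9, 5 were higher at unadjusted p under 0.05, against 2.18% of all genes tested. Among them was the matrix gene Dcn at 22.6 and 13.4 against 30.1 and 29.3 FPKM. That list summed to 235 and 145 FPKM in the wild-type pools, 263 and 189 in the mutant ones, and no member was at 0. The part of meningeal tissue in the Moxd1 difference was not tested. Barx1, which defines the jaw mesenchyme where Lhx6 and Lhx8 are also active, was between 0.116 and 0.194 FPKM in the E17.5 libraries. That list of 11 genes summed to 9.96 and 7.49 FPKM in the wild-type pools, 8.31 and 10.97 in the mutant ones. Of 9 thyroid and lung genes, tissues that use Nkx2-1, none had a mean of 1 FPKM at either age, and the thyroid gene Tg reached no more than 0.0861 FPKM. The neural crest factor Sox10, checked because Moxd1 is also known from crest cells, measured 1.79 and 1.58 FPKM in the wild-type pools and less, 1.46 and 1.22, in the mutant ones. Its list of 8 genes summed to 16.1 and 14.3 FPKM, then to 12.9 and 14.2, in the same order. Anterior pituitary differed between pools of one genotype, with its list of 9 genes at 107.5 and 45.4 FPKM in the wild-type pools and 75.7 and 91.8 in the mutant ones. Its 4 tested genes were higher in the mutant in 3 cases, with no group apart from the other.

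At E12 the 4 genes gave no single picture, and the 2 early stages went opposite ways for Lhx6 and Nkx2-1. Of the 4, 3 passed the filter of a mean of 1 FPKM over the E12 libraries, and Moxd1 did not. None of the 3 differed 1.5-fold or more, on the FPKM + 1 scale, in the same direction at both stages, as 0.092% of 11952 genes did upwards and 0.092% downwards. With 1 library per genotype at each stage these differences have no replicate check.

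For Nkx2-1 the wild-type and mutant pools of E12.0 gave 39.8 and 13.1 FPKM, and those of E12.5 gave 24.2 and 29.96. The wild-type library was thus 3.05 times the mutant at the first stage and below it at the second, with log2 differences of -1.54 and 0.30. A difference of 1.5-fold or more downwards occurred in 6.38% of genes at E12.0 (E12.5: 0.912%), and 0.494% of genes had a lower value than Nkx2-1 at E12.0. The wild-type E12.0 library is the shallowest, yet Nkx2-1 rests on about 378 fragments there. The counting interval of the mutant to wild-type ratio was 0.287 to 0.375 (95%, exact, from estimated fragments).

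Lhx6 measured 4.79 FPKM in the wild-type and 2.95 in the mutant pool of E12.0, then 4.79 and 6.11 in those of E12.5. Wild-type values were the same at the 2 stages, and the mutant value lay below and then above them. Each is 1 library, and that of wild-type E12.0 is the shallowest, with about 61 Lhx6 fragments. The source of the change of sign was not tested. The ratio of mutant to wild-type was 0.616 (counting interval 0.455 to 0.841) and then 1.28 (1.10 to 1.48). Per unit of Nkx2-1, Lhx6 was at 0.120 in the wild-type E12.0 library and between 0.198 and 0.226 in the other 3.

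Lhx8 was barely present in the wild-type E12.0 library, at 0.161 FPKM or about 1 fragment, against 1.54 FPKM and about 50 fragments in the mutant. Their ratio of 9.57 had a counting interval of 2.05 to 481. At E12.5 it was at 1.68 and 2.16 FPKM, a ratio of 1.29 with an interval of 0.925 to 1.77. Counting error alone could cover that difference. An upward difference of 1.5-fold or more, which Lhx8 showed at E12.0, occurred in 3.09% of genes at that stage and 0.36% at E12.5.

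Moxd1 was under 1 FPKM in all 4 early libraries, with 0.501 in the wild-type and 0.442 in the mutant pool of E12.0, then 0.672 and 0.571 in those of E12.5. Both mutant values were slightly below wild-type, with ratios of 0.882 (counting interval 0.344 to 2.64) and 0.850 (0.517 to 1.39). Counting error alone could cover both differences. Intervals cover counting error only, not the spread between pools, and those at E12 rest on less certain fragment numbers. They are therefore no test of genotype.

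Telencephalic genes were also measured at E12. Eomes measured 6.204 FPKM in the wild-type and 7.13 in the mutant pool of E12.0, then 2.64 and 1.75 in those of E12.5. The list of 12 telencephalic and cortical genes summed to 169 and 149 FPKM in the E12.0 pools, wild-type first, and to 155 and 139 in the E12.5 pools. Emx1 was at 0 in the mutant E12.5 library and was between 0.116 and 0.597 FPKM in the other 3. The part of tissue makeup in the early differences was not tested.

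Across ages the wild-type levels of the 4 genes ran in different directions, given as a description because the E12 and E17.5 values were made separately. Nkx2-1 went from 39.8 and 24.2 FPKM in the early pools to 10.1 and 9.19 in the late ones. Lhx6 went from 4.79 at both early stages to 8.17 and 9.38, Lhx8 from 0.161 and 1.68 to 4.22 and 6.16, and Moxd1 from 0.501 and 0.672 to 1.21 and 1.13. Nkx2-1 was therefore the most abundant of the 4 in every E12 library, where Lhx6 reached 0.120 to 0.226 of its level. At E17.5 Nkx2-1 and Lhx6 overlapped in wild-type, and Lhx6 was the higher of the pair in both mutant libraries. Lhx8 stood below them in all 4 late libraries, at 0.425 to 0.656 of Lhx6, and Moxd1 was the lowest.

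The 4 genes did not vary as one group over the libraries. With each value taken relative to its stage mean, Pearson's r over the 8 libraries was 0.74 between Lhx6 and Moxd1 (Spearman's rho 0.69), 0.11 between Lhx6 and Lhx8 (0.05) and -0.78 between Lhx8 and Nkx2-1 (-0.57). The other 3 pairs lay between 0.01 and 0.42. These points share pools, depth and stage. In size, the log2 difference was largest at E12.0 for Nkx2-1 (-1.54) and Lhx8 (1.13). For Lhx6 (0.72) and Moxd1 (0.70) it was largest at E17.5, a contrast on which the 4 were chosen.

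The genes most like each of the 4 by the same measure were found among about 776 candidates that varied and reached 1 FPKM on average at both ages. For Lhx6 these included the proliferation marker Mki67 (r = 0.89) and the splicing gene Snrpd3 (0.88). Snrpd3 gave 53.6 and 57.3 FPKM in the wild-type pools of E17.5, 64.7 and 71.6 in the mutant ones. For Moxd1 they were Arhgdib (0.90), Eomes (0.81) and Colec12 (0.79). Arhgdib gave 3.48 and 3.35 FPKM in the wild-type pools and 5.25 in both mutant libraries of that age. Lhx8 was followed most closely by B9d2 (0.97), Snhg7 (0.92) and Apip (0.91), all lowest in the wild-type E12.0 library among the 4 E12 libraries. Nkx2-1 was matched by Kmt2b, Zfp362 and Ago2, with r of 0.999, 0.998 and 0.998. These broadly used genes were high in the wild-type E12.0 library alone: Kmt2b was at 17.497 FPKM there and at 8.35, 8.40 and 9.48 in the other early libraries. Nkx2-1 was highest in that library too. At 13.1 FPKM in the mutant E12.0 library Nkx2-1 lay below both E12.5 values of 24.2 and 29.96. Kmt2b was also lowest in the mutant E12.0 library, where its 8.35 FPKM was close to the 8.40 of wild-type E12.5. Since the E12.0 pair dominates this measure for Nkx2-1, a gene with a large difference there scores high with it whatever its other values. The part of the wild-type E12.0 library in the Nkx2-1 difference was not tested.

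The genes around these 4 were described from lists, first at E17.5. The adjusted threshold of limma was passed by 1 gene of 13235, Oxt, and by no other gene of these lists. Unadjusted p was under 0.05 and the mutant higher in 2.18% of all genes, and under 0.05 and lower in 3.52%. Without mutant replicate 2 these shares were 1.98% and 2.78%, and 0.0756% passed the adjusted threshold.

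Genes that act with or after Lhx6 in interneurons from the medial ganglionic eminence were higher in the mutant in 14 of 15 cases, with a median log2 difference of 0.14. Just 1 had unadjusted p under 0.05, the neuregulin receptor gene Erbb4 (0.21). In 2 of the 15 both mutant libraries lay above both wild-type ones, as they did in 20.9% of all genes tested. The largest differences were those of Zeb2 (0.41), Npy (0.30) and Cxcr4 (0.24), a chemokine receptor gene for migrating interneurons. Without mutant replicate 2 the count was 7 of 15 and the median 0.00, so it rested on that library. Sox6, a direct downstream regulator, was at 5.04 and 4.997 FPKM in the wild-type pools, 5.01 and 6.36 in the mutant ones, and the interneuron peptide gene Sst at 75.7 and 70.2 against 58.0 and 99.8.

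Genes shared by forebrain GABAergic cells were higher in 8 of 11 cases, and in 9 of 11 without mutant replicate 2. Of these, 3 had unadjusted p under 0.05, among them the homeobox genes Dlx1 (log2 difference 0.32) and Dlx5 (0.26). Dlx1 gave 27.7 and 27.1 FPKM in the wild-type pools, 35.5 and 33.2 in the mutant ones. The gene for the GABA-synthesizing enzyme Gad1, at 67.4 and 71.1 against 73.3 and 65.8 FPKM, and the vesicular transporter gene Slc32a1 (-0.08) overlapped between genotypes. Lhx6 stood at 1.26 and 1.596 times Dlx2 in wild-type and at 1.97 and 2.70 times in mutant. Dlx2 itself overlapped, at 6.51 and 5.88 against 6.80 and 6.28 FPKM, so this ratio mostly repeats the Lhx6 difference. Among striatal genes, 6 of 10 were higher, with Rxrg (0.22) at unadjusted p under 0.05.

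Cholinergic genes, the programme in which Lhx8 acts, gave 3 higher and 3 lower of 6 tested (median -0.04), with none at unadjusted p under 0.05, and 4 higher of 6 without mutant replicate 2. Isl1, the partner of Lhx8 in cholinergic neurons, was at 31.999 and 30.6 FPKM in the wild-type pools, 30.4 and 27.8 in the mutant ones. Chat, the enzyme that defines these neurons, was no higher than 0.184 FPKM in any library and was at 0 in all 4 at E12. Zic4 had the largest difference of the list (-0.27).

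In the family of Lhx6 and Lhx8 the other LIM homeobox genes were lower in 6 of 7 tested cases (median -0.09), none at unadjusted p under 0.05, and Lhx2 (0.18) was the exception. Without mutant replicate 2 the count was 5 of 7. Of the 9 LIM cofactors, adaptors and inhibitors through which LIM factors work, 7 were higher (4 of 9 without mutant replicate 2, with a median of 0.00), and Ssbp4 (-0.26) alone had unadjusted p under 0.05. The adaptor gene Ldb1 was at 56.0 and 53.6 against 55.1 and 55.0 FPKM. Among relatives of Moxd1, Pam, which amidates peptides, differed by -0.02, Dbh was no higher than 0.0545 FPKM in any library and Moxd2 was listed at 0 in all 8.

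Genes around the hypothalamic domain of Nkx2-1 were lower in the mutant in 7 of 12 cases (median -0.07), and in 9 of 12 without mutant replicate 2. Those at unadjusted p under 0.05 were Nkx2-4 (-0.68), a close relative of Nkx2-1, Six6 (-0.44) and Nkx2-2 (-0.36). Nkx2-4 gave 7.69 and 7.74 FPKM in the wild-type pools, 5.67 and 3.43 in the mutant ones, unlike Nkx2-1, and the 2 mutant libraries differed from each other. Shh, which induces Nkx2-1 in the ventral forebrain, was at 2.85 and 2.84 against 2.63 and 3.22 FPKM. Of the 10 other NK family genes listed, Nkx2-2 and Nkx2-4 were the 2 tested at this age.

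Preoptic peptides, receptors and regulators were lower in 7 of 11 cases (median -0.06) and, without mutant replicate 2, higher in 7 of 11. Nts, the neurotensin precursor, was higher at unadjusted p under 0.05 (0.38), with 20.4 and 17.4 FPKM in the wild-type pools, 22.6 and 27.2 in the mutant ones. Calb1, a calcium-binding protein of the same dimorphic nucleus as Moxd1, was lower at unadjusted p under 0.05 (-0.18), from 27.2 and 28.3 to 25.5 and 23.4. Esr1, the estrogen receptor gene, gave 0.992 and 0.970 FPKM in the wild-type pools, 1.28 and 0.826 in the mutant ones, and the gene for the peptide galanin, Gal, at 10.1 and 12.009 against 12.4 and 8.23. In contrast, 8 of 11 tested genes of a list that defines hypothalamic nuclei were lower, including Oxt, which fell by 1.89 on the log2 scale (limma adjusted p = 0.00716).

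**Figure D5:**
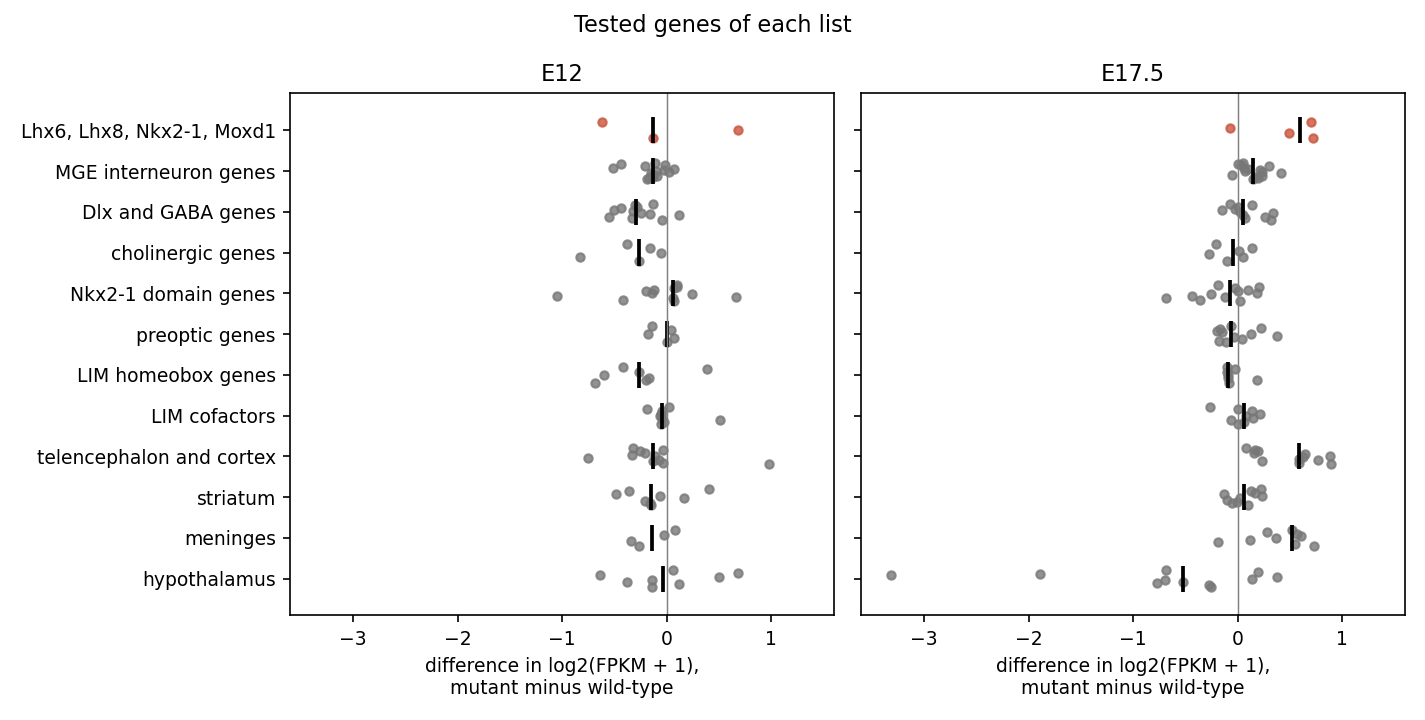
Each point is a tested gene of a list, placed by its difference in log2(FPKM + 1), mutant minus wild-type, at E12 (both early stages, stage as a block) and at E17.5; black bars are list medians. At E17.5 the medians of the 4 genes (0.60), of telencephalon and cortex (0.59) and of meninges (0.52) lie to the right, and that of hypothalamus (-0.52) to the left.

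At E12, with both early stages in one limma fit, the adjusted threshold was passed by 4 of 11952 genes (0.0335%), none of them in these lists, and unadjusted p under 0.05 was reached by 0.602% of genes higher and 0.803% lower. Of the interneuron genes 13 of 15 were lower (median -0.13, with 47.8% of all genes lower), none at unadjusted p under 0.05. Dlx and GABA genes were lower in 11 of 12 cases, with Sp8 (-0.51) at unadjusted p under 0.05. All 5 tested cholinergic genes were lower on average over both stages, none at unadjusted p under 0.05. The largest difference was that of Gbx2 (-0.83, standard error 0.77), which changed direction between the stages. It measured 0.954 and 2.48 FPKM in the wild-type and mutant pools of E12.0, then 8.20 and 0.630 in those of E12.5. Zic4 changed direction likewise, with 1.91 and 4.25, then 4.71 and 1.93, while Isl1, Ngfr and Ache were lower at both stages. In the Nkx2-1 domain list 7 of 12 were higher. Nkx6-2 (0.67), a ventral regulator, was higher and Six3 (-1.05) and Nkx2-2 (-0.42) were lower at unadjusted p under 0.05. Nkx6-2 measured 3.74 and 7.06 FPKM in the wild-type and mutant pools of E12.0, then 4.94 and 7.84 in those of E12.5. Of the LIM homeobox genes 6 of 7 were lower, Lhx1 (-0.68) at unadjusted p under 0.05, while Lmx1a (0.38) was higher at unadjusted p under 0.05. Lmo1 (0.51), which encodes a LIM-only inhibitor, was higher at unadjusted p under 0.05 among the cofactors, with 23.3 and 37.7 FPKM in the E12.0 pools, then 34.6 and 44.4 in the E12.5 ones. Preoptic genes were too low for all but 5 of 13 to be tested, of which 3 were higher.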

How the data were processed

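Values are FPKM as the authors deposited them, and the tools named are TopHat and Cufflinks, with mm9 as the build, per the submitters' processing notes. Versions and strandedness are not given in the sources used here. Per the labels, libraries were sequenced for 100 cycles, paired-end. Per the file headers, E12 values are per gene and E17.5 values per transcript. Rows of one symbol were summed, and 8 unnamed E12 rows (at most 0.0360% of FPKM) were left out. Small RNA genes carried 9.77% to 24.5% of FPKM, and 11572 to 13219 genes per library reached 1 FPKM.

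Differences were taken in log2(FPKM + 1), which understates changes of low genes. Genes whose mean reached 1 FPKM were fitted with limma (trended variance, two-sided, Benjamini-Hochberg over all genes, threshold 0.05). The fits covered the 4 E17.5 libraries and the 4 E12 libraries with stage as a block, where p measures disagreement between the 2 stages. The fit was tested on simulated data.

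The 4 genes, the gene lists and the alternatives were chosen with earlier results of these data known. From each list the genes with the largest differences, up to 3 at E17.5 and 2 at E12, those past a threshold and markers that define other tissues were eligible to be named. Further genes were added after values were seen: those at unadjusted p under 0.05, and for their role Eomes, Tbr1, Neurod2, Dlx2, Otp, Sim1, Sox6, Sst, Gad1, Slc32a1, Chat, Ldb1, Shh, Esr1, Gal, Dbh and Moxd2. The 3 genes most like each member had the highest Pearson correlation among genes with an SD of at least 0.2, leaving out predicted, small RNA, histone and sex-linked genes. Some genes that these rules would name are not reported here.

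FPKM values per fragment came from transcripts over 2500 nt, with 170 nt taken off. Of values under 5 fragments, 79.0% to 80.6% were whole to 0.1 at E17.5, and 31.0% to 40.7% at E12. Fragments of a gene with several transcripts use their median length. Python 3.11.15, R 4.3.3 and limma 3.58.1 were used.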

Additional observations from a re-analysis of the deposited data

Results flagged for a closer look

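Lhx6 differed between mutant and wild-type in opposite directions at E12.0 (log2 difference -0.55) and at the later stages (0.30 at E12.5, 0.72 at E17.5). Nkx2-1 did so between E12.0 (-1.54) and E12.5 (0.30). Moxd1 was lower in both early mutant libraries (-0.0578 and -0.0897) and higher in both late ones (0.70). In each case every library of one stage lay on one side and every library of the other stage on the opposite side. The difference between stages was not tested.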

How the results depend on the processing

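Under other pseudocounts, scalings and row choices, 34 of 40 recalculated differences of the 4 genes stayed within the spread of the reported value and 6 left it, none with a change of sign. At E12 that spread is the SD of the 2 stage differences and is wide (1.298 for Nkx2-1), so staying within it says little there. Another 36 values left out a library or added the block. With so few libraries these cannot leave the spread by construction, so only their sign is read, and it changed in 5. Lhx6, Lhx8 and Moxd1 kept a positive sign at E17.5 under all alternatives run. Pseudocounts of 0.1 and 5 moved Moxd1 at E17.5 to 1.05 and 0.29, and at E12 to -0.18 and -0.0207, with -0.13 without small RNA genes. A pseudocount of 0.1 moved Lhx8 at E12 to 1.498. With one library left out the ranges at E17.5 were 0.56 to 0.88 for Lhx6, 0.27 to 0.72 for Lhx8, 0.60 to 0.80 for Moxd1 and -0.17 to 0.0296 for Nkx2-1, which changed sign without mutant replicate 2. At E12 leaving out a library leaves the other stage alone. Then Lhx6 (-0.13 over both stages) was -0.55 or 0.30, Nkx2-1 (-0.62) -1.54 or 0.30, Lhx8 (0.68) 0.24 or 1.13 and Moxd1 -0.09 or -0.06. The positive signs of Lhx6 and Nkx2-1 came without either E12.0 library.

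Oxt, the gene past the threshold at E17.5 as reported, gave 8.10 and 7.72 FPKM in the wild-type pools, 1.39 and 1.43 in the mutant ones. Its mean was under 5 FPKM, so a filter at that mean left it out of the test. The count of genes past the threshold at E17.5, 1 as reported, was 0 with no filter and with a filter at a mean of 5 FPKM. It was 4 without wild-type replicate 1, 44 without mutant replicate 1 and 10 without mutant replicate 2, a range of 1 to 44. With the replicate number as a block (replicate block) it was 16. Deviations of same-numbered libraries correlated by 0.028 across genes, so the number gives no sign of pairing, and the differences of the 4 genes are the same under the block. At E12 the count of 4 became 1 with a pseudocount of 5, with quantile normalization, with no filter and with no trend, and 78 with no stage block. Leaving out an E12 library, with the spread pooled over all stages and a lone library assumed to vary like the others, gave 55 to 2595. At E12.0 it was 55 without the wild-type pool and 59 without the mutant one, and at E12.5 it was 2595 and 2440. That pooling, an alternative chosen after seeing the data, gave 4 with no library left out. The recounts of lists without mutant replicate 2 were also chosen after seeing the data. The cause of the other changes was not tested.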
